A study of Mus musculus with 6 samples.

Results

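Neurotrophins are secreted growth factors that keep neurons alive and shape their connections. The genes described here were brain-derived neurotrophic factor (Bdnf), neurotrophin-3 (Ntf3), the receptors Ntrk2, Ntrk3 and Ngfr, and glial cell line-derived neurotrophic factor (Gdnf). They were chosen by name, as a set of 6 genes, and each was read through a probeset that named it alone, a probeset being the group of short probes that reports a transcript. Of the 6 genes, 5 had such a probeset, 1 each, among 19938 genes represented in this way. Ntf3 was not analysed here.

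Expression was measured in primary osteoblasts, the bone-forming cells, of 3 male WT mice of strain C57BL6/J aged 8 to 12 weeks. The cells of each mouse gave both cultures, and the numbers 2, 4 and 5 of the sample titles, which occur once in each group, were taken as those of the mice. From each, 1 culture was stimulated for 4 h with 100 ng/ml recombinant murine C5a, the anaphylatoxin released when complement is activated, and 1 culture was left unstimulated for the same 4 h in proliferation medium. All cells had been differentiated for 14 days in osteogenic medium at passage 2 to 3. The comparison asks which transcripts differ after C5a, with the pair of cultures from 1 animal as the unit. The cells had grown out of collagenase-treated long bone pieces, were not sorted, and no culture lacking the C5a receptor was among the arrays used. Each of the 6 RNA samples went onto its own array, and the values are log2 expression after robust multiarray averaging (RMA), so that a difference of 1 is a doubling. In such bulk samples, a change in the number of cells that express a gene and a change in the RNA per cell cannot be told apart.

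A neurotrophin is made as a precursor that proteases such as furin and plasmin cut to the mature factor. Mature factors bind Trk receptor tyrosine kinases: TrkB, the product of Ntrk2, is the receptor of BDNF, and TrkC, the product of Ntrk3, is that of neurotrophin-3. The product of Ngfr, the p75 receptor, binds all neurotrophins and, together with sortilin, their precursors. GDNF is not a neurotrophin by sequence or receptor. It is a distant member of the TGF-β superfamily and signals through a GFRα co-receptor and the tyrosine kinase Ret.

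The ligands were higher with C5a in all 3 mice, by small amounts, and the receptors differed little. No member reached an adjusted p under 0.05, which is 0 of 5, where 0.0112% of all 35556 probesets did. Likewise 0 of 5 passed the thresholds of the study's methods, an unadjusted p under 0.05 with at least a 1.5-fold difference, which 2.22% of all genes passed as higher and 2.21% as lower. At an unadjusted p under 0.05 alone, 2 of 5 members, Bdnf and Gdnf, were higher and 0 were lower. Over all genes these shares were 8.26% and 11.9%. The median log2 difference was 0.02 over the 5 members and -0.01 over all genes.

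**Figure D1:**
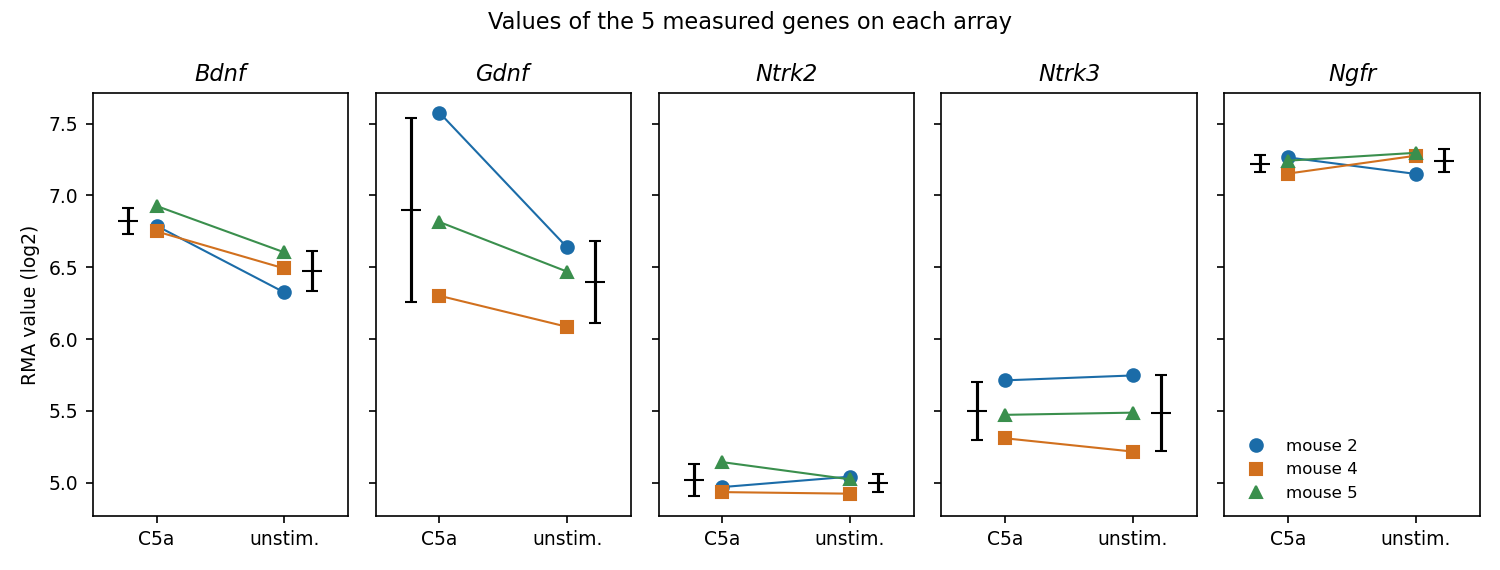
RMA values (log2, vertical axis) of the 5 measured genes on the 6 arrays, C5a on the left and unstimulated on the right of each panel. Points of 1 mouse are joined, and the bars beside them are the mean ± SD of 3 arrays. Bdnf and Gdnf lie higher with C5a in each mouse, whereas the lines of Ntrk2, Ntrk3 and Ngfr run nearly level.

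Bdnf (Entrez Gene 12064, chr2:109674700-109727043 in GRCm38.p6) supports the survival and the synaptic plasticity of neurons. Its log2 values were 6.79, 6.75 and 6.93 in the C5a cultures of mice 2, 4 and 5, against 6.33, 6.49 and 6.60 in their unstimulated cultures. The lowest C5a culture thus lay above the highest unstimulated one, and Bdnf was the only member whose groups did not overlap (1 of 5, where 8.67% of all genes were higher without overlap). Bdnf averaged 6.82 ± 0.09 with C5a and 6.47 ± 0.14 unstimulated (SD, n = 3 each). The log2 difference was 0.35 (SE 0.08, 95% interval 0.15 to 0.55), or 1.27-fold, and within mice 2, 4 and 5 it was 0.46, 0.26 and 0.32. This did not pass limma's adjustment over all probesets (adjusted p = 0.142). By p-value the Bdnf probeset ranked 1735 of 35556.

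Gdnf (Entrez Gene 14573, chr15:7810048-7837580) supports dopaminergic and motor neurons and is needed for the budding of the kidney. Its log2 values were 7.58, 6.30 and 6.82 in the C5a cultures of mice 2, 4 and 5, against 6.64, 6.09 and 6.47 in the unstimulated ones. The C5a culture of mouse 2 stood out, and both cultures of mouse 4 were low, so that the groups overlapped although every mouse was higher with C5a. Gdnf averaged 6.90 ± 0.64 with C5a and 6.40 ± 0.28 unstimulated (SD, n = 3 each). The log2 difference was 0.50 (SE 0.16, 95% interval 0.09 to 0.91), or 1.41-fold, with 0.94, 0.22 and 0.35 in mice 2, 4 and 5. It did not pass the adjustment either (adjusted p = 0.232). Its size turned on mouse 2: without this mouse it was 0.28 (adjusted p = 0.443), and without mouse 4 it was 0.64 (adjusted p = 0.198). The means of the 3 mice were spread over 0.91 log2 units for Gdnf and over 0.21 for Bdnf, and without the pairing by mouse the adjusted p of Gdnf was 0.722.

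The signalling receptor of BDNF, Ntrk2 (Entrez Gene 18212, chr13:58806472-59133970), was at 4.97, 4.93 and 5.14 in C5a cultures of mice 2, 4 and 5, against 5.04, 4.92 and 5.02 in unstimulated ones. The groups overlapped, and 2 mice were higher and 1 lower. The log2 difference was 0.02 (SE 0.08, 95% interval -0.18 to 0.22, adjusted p = 0.953). Ntrk2 lay below the median of every array, with 32.4% to 36.1% of the probesets below it, and was the only member left out when the dimmest 40% of probesets were dropped.

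Ntrk3 (Entrez Gene 18213, chr7:78179986-78581034), the receptor gene for neurotrophin-3, was at 5.71, 5.31 and 5.47 in C5a cultures, against 5.75, 5.22 and 5.49 in unstimulated ones, for mice 2, 4 and 5. Both cultures of mouse 2 were high and both of mouse 4 low, and the groups overlapped almost fully. The log2 difference was 0.01 (SE 0.07, 95% interval -0.17 to 0.20, adjusted p = 0.963). Ntrk3 was also below the median of every array, with 38.7% to 47.7% of the probesets below it. Ntrk3 thus varied with the mouse, whose means spanned 0.47 log2 units, far more than with C5a.

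Ngfr (Entrez Gene 18053, chr11:95568818-95587698) encodes the p75 receptor, which is found on neurons, Schwann cells and mesenchymal stem cells. Its log2 values were 7.27, 7.15 and 7.24 in C5a cultures of mice 2, 4 and 5, against 7.15, 7.28 and 7.30 in unstimulated cultures. All 6 values lay close together, 1 mouse being higher and 2 lower with C5a. The log2 difference was -0.02 (SE 0.08, 95% interval -0.23 to 0.19, adjusted p = 0.951). From 66.0% to 67.8% of the probesets lay below it. For each of the 3 receptors the whole interval stayed within 0.23 log2 units of no difference, compared with 0.58 for a 1.5-fold change. These intervals bound the probeset signal. Without detection calls it is not known how much of the signal of Ntrk2 and Ntrk3, both below the array medians, came from their RNA. Bdnf had 56.1% to 64.0% and Gdnf 52.8% to 71.4% of the probesets below them. Since probesets bind with unequal strength, these positions do not rank the genes by their RNA.

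**Figure D2:**
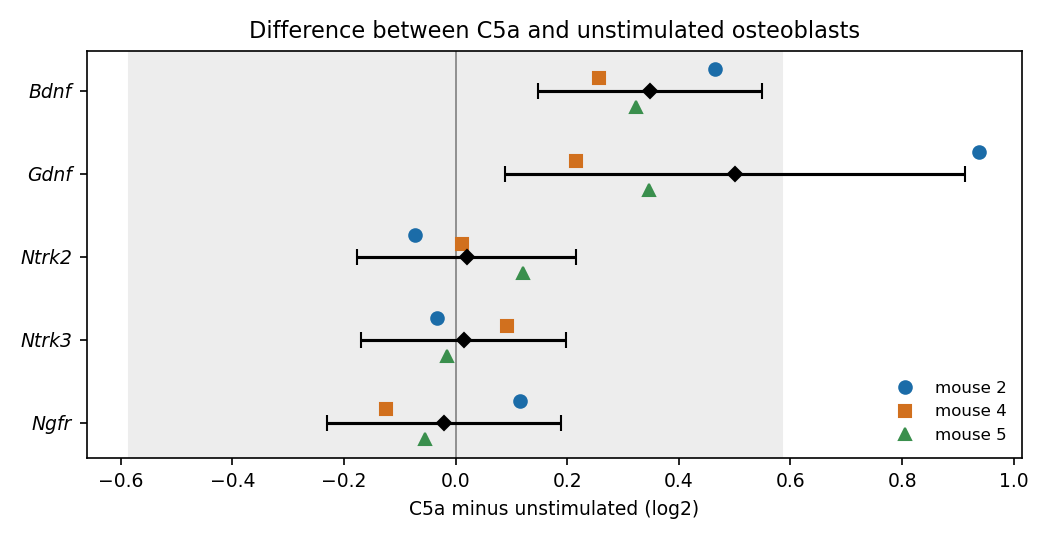
Difference between C5a and unstimulated cultures (log2, horizontal axis) for the 5 measured genes, with the estimate (diamond), its 95% interval (bar) and the difference within each mouse (coloured points). The grey band covers less than a 1.5-fold difference. The intervals of Bdnf (0.15 to 0.55) and Gdnf (0.09 to 0.91) lie above 0, and those of the 3 receptors include it.

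To show the DNA from which the higher ligand genes are transcribed, windows from 250 bases before to 50 bases after each annotated start were taken from RefSeq (GRCm38.p6). They were available for 5 of the 6 members, with 7 windows for Bdnf, which has several promoters, 2 each for Gdnf and Ntf3, and 1 each for Ngfr and Ntrk2. Both strands were searched for the cAMP response element TGACGTCA (in 1.79% of all 32851 windows), its half-site TGACG (20.8%), the AP-1 element TGANTCA (7.81%), the E-box CACGTG (7.15%) and the EGR motif GCGGGGGCG (2.91%). The half-site lies within the full element, of which no member window held a copy, and the EGR motif was not found in them either. The half-site occurred in 1 of the 7 windows of Bdnf, 35 bases before the start, and in 1 of the 2 windows of Gdnf, 50 bases before it. Printed are these 2 windows, chr2:109692186-109692485 and chr15:7809798-7810097, both on the plus strand. They were picked for the half-site among the windows of the 2 genes that were higher, and the other windows of both genes held none. With the half-site in 20.8% of all windows, such a match does not set these 2 genes apart. It is shown in capitals as it reads on the opposite strand.
Bdnf: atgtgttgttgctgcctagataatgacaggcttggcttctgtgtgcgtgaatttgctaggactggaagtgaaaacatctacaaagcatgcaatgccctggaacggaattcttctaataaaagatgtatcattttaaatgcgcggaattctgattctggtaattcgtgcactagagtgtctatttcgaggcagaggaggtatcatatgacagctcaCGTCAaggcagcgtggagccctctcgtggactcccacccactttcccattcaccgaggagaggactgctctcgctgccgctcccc
Gdnf: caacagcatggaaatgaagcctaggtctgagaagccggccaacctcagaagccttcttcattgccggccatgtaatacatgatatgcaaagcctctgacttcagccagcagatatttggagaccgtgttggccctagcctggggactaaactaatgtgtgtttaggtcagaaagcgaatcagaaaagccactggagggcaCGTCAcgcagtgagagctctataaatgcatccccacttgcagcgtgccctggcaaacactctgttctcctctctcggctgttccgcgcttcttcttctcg
Another Bdnf window held an AP-1 element 152 bases before its start, and 1 Ntf3 window an E-box 231 bases before its start. These matches describe the sequence only, since the arrays measured neither the binding of a factor nor which start was used.

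The members did not move as a group across the 6 arrays. Ntrk3 and Gdnf had the highest correlation between members (r = 0.76), both being highest in mouse 2 and lowest in mouse 4. Bdnf and Gdnf reached 0.42, and the other 8 pairs lay between -0.18 and 0.40. These coefficients are descriptions over 6 arrays that share 3 mice. Among 11844 other genes above the median level, those most like Bdnf were the BMP type I receptor Acvr1 (r = 0.990), Ccdc6 (0.990) and the zinc finger gene Zfp397 (0.989), and 340 genes reached 0.9. Acvr1 differed by 0.55 on the log2 scale (adjusted p = 0.110). Most like Gdnf were Zfyve9 (0.992), the sterol transporter gene Npc1l1 (0.992) and Stimate (0.990), and 158 genes reached 0.9. With C5a these neighbours of Gdnf differed by only 0.12, 0.08 and 0.10 (adjusted p = 0.584, 0.723 and 0.646). Most like Ntrk3 were the potassium channel gene Kcnk4 (0.997), the nuclear envelope gene Sun2 (0.990) and Sfrp4 (0.989), which encodes a secreted Wnt antagonist. For Ntrk2 they were Ier5l (0.971), Mir504 (0.969) and Metrn (0.967), which encodes the secreted factor meteorin. For Ngfr they were the histone reader Kmt2e (0.984), Dnajb5 (0.974) and Wdr82 (0.960), with 24 genes at 0.9 or above.

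The genes around the members were followed in 6 lists, of which 72 of 78 genes were measured. At the study thresholds 5 of the 72 were higher and 8 lower with C5a, and 1 passed the adjusted threshold. Over all genes 2.22% were higher and 2.21% lower at the study thresholds, and 0.0112% of all probesets passed the adjusted one. The same shares apply to the counts of each list below. Of the 13 list genes past the study thresholds, 7 belonged to the list of genes that neurotrophins induce in neurons. Without this list 3 of 62 were higher and 3 lower. The gene that passed the adjusted threshold was Fos, of the same list. The lists were chosen with earlier results of these data known. The study had already listed Fos, Junb, Egr1 and Nr4a1 among its most strongly lowered genes. The counts are therefore descriptions and not a test of the pathway.

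Of the other ligands, 4 of 5 were measured, none passed the study thresholds, and the median log2 difference was 0.06. Artn, which encodes artemin, a GDNF relative, was at 6.62, 5.81 and 5.92 with C5a in mice 2, 4 and 5, against 5.51, 5.60 and 6.22 unstimulated. The Artn value thus differed by 1.11 in mouse 2 and by -0.30 in mouse 5, each from 1 array per culture. The log2 difference of 0.34 (SE 0.28) did not pass (adjusted p = 0.674). Neurturin (Nrtn, 0.11), persephin (Pspn, 0.01) and Ntf5, the gene of the other TrkB ligand (-0.06), had differences close to 0, with overlapping groups.

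Of the other receptors and co-receptors, 14 of 15 were measured, 1 was higher and 1 lower at the study thresholds, and the median was -0.05. Ret, the kinase that carries the GDNF signal, was at 7.16, 6.38 and 6.12 with C5a in mice 2, 4 and 5, against 5.81, 5.74 and 6.08 unstimulated. The groups did not overlap, but mouse 5 differed by only 0.05, while mouse 2 differed by 1.35. The log2 difference of Ret was 0.68 (SE 0.25, adjusted p = 0.295). Gfra2, the preferred co-receptor of neurturin, was at 9.38, 7.86 and 9.15 with C5a, against 10.64, 9.27 and 9.66 unstimulated, in the same order of mice. It was lower in each mouse although the groups overlapped, with a log2 difference of -1.06 (SE 0.19, adjusted p = 0.116), and without the pairing by mouse it did not pass the study thresholds. The GDNF co-receptor itself, Gfra1, was at 9.48, 8.46 and 11.15 with C5a and 9.93, 8.47 and 10.98 unstimulated. Gfra1 therefore followed the mouse and not the treatment (-0.09, adjusted p = 0.846). Sortilin (Sort1), the partner of p75 for precursors, was lower in all 3 mice, with a log2 difference of -0.31 (adjusted p = 0.241). Its relative Sorcs2 (0.23, adjusted p = 0.281) and the alternative GDNF receptor Ncam1 (0.34, adjusted p = 0.282) had positive differences.

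All 9 genes of the list of processing proteases were measured, 1 was higher and none lower at the study thresholds, and the median was 0.08. Plat, tissue plasminogen activator, makes the plasmin that cleaves proBDNF. Its values were 10.43, 9.60 and 9.50 with C5a in mice 2, 4 and 5, against 9.15, 9.05 and 9.16 unstimulated, with no overlap and the highest value again in mouse 2. The log2 difference was 0.72 (SE 0.20, adjusted p = 0.183). Furin was at 10.63, 10.19 and 10.09 with C5a, against 9.64, 10.04 and 9.53 unstimulated. These groups did not overlap either, and the difference of 0.57 lay just under 1.5-fold (adjusted p = 0.213). Plg, the gene of plasminogen, was low at 4.71 to 4.84 with C5a and 4.69 to 5.04 unstimulated.

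Of the adaptors that bind Trk or p75 receptors, 21 of 24 were measured, 1 was higher and 1 lower at the study thresholds, and the median was -0.06. Gab1, a docking protein that couples receptor kinases to PI3-kinase, was at 7.77, 7.93 and 8.21 with C5a in mice 2, 4 and 5, against 8.39, 8.61 and 8.91 unstimulated. The difference was nearly the same in each mouse (-0.63, -0.68 and -0.70), with a mean of -0.67 (SE 0.07, adjusted p = 0.0858). Sh2b2, an adaptor of Trk and insulin receptors, was at 7.57, 7.65 and 8.05 with C5a, against 6.98, 7.30 and 6.99 unstimulated. It was higher in each mouse without overlap, by 0.67 (SE 0.15, adjusted p = 0.147). Its relative Sh2b1 had the opposite sign, -0.28 (adjusted p = 0.163), as did the Trk-binding scaffold Kidins220, -0.24 (adjusted p = 0.215).

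Of 15 regulators of Bdnf transcription, 14 were measured, 0 were higher and 1 was lower at the study thresholds, and the median was 0.08. Mef2c, a transcription factor of activity-dependent genes, was at 6.52, 7.30 and 7.22 with C5a in mice 2, 4 and 5, against 7.53, 8.02 and 7.56 unstimulated. It was lower in all 3 mice without overlap, with a log2 difference of -0.69 (SE 0.14, adjusted p = 0.131). Rest, which represses neuronal genes including Bdnf, was at 9.79, 9.16 and 9.49 with C5a, against 8.75, 9.03 and 9.05 unstimulated. The difference of 0.53 did not reach 1.5-fold (adjusted p = 0.265), and it was 1.03 in mouse 2 and 0.13 in mouse 4. Creb1, the factor that binds the cAMP response element, differed by 0.18 (adjusted p = 0.331), and Usf2, which binds E-boxes, by -0.18 (adjusted p = 0.407).

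All 10 genes of the list induced by neurotrophins in neurons were measured, 2 were higher and 5 lower at the study thresholds, and the median was -0.86. The 5 lower ones were Fos, Junb, Egr1, Nr4a1 and Arc, immediate early genes that respond to many stimuli other than neurotrophins. Fos was at 7.04, 6.56 and 6.65 with C5a in mice 2, 4 and 5, against 11.75, 11.58 and 11.44 unstimulated. Fos fell by 4.84 on the log2 scale with C5a (SE 0.09, adjusted p = 0.00274), by much the same amount in each mouse (-4.71, -5.02 and -4.78). The differences were -2.01 for Junb, -1.85 for Egr1, -3.85 for Nr4a1 and -1.68 for Arc, with adjusted p between 0.0704 and 0.131. The 2 higher ones were Plaur, the urokinase receptor (1.18, adjusted p = 0.137), and the synaptic scaffold gene Homer1 (0.68, adjusted p = 0.256). Homer1 was at 7.97, 6.91 and 7.35 with C5a, against 6.68, 6.78 and 6.74 unstimulated, and differed most in mouse 2, as Gdnf, Ret, Plat and Plaur did. Vgf, a secreted peptide precursor of neurons, differed by 0.13 (adjusted p = 0.744).

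**Figure D3:**
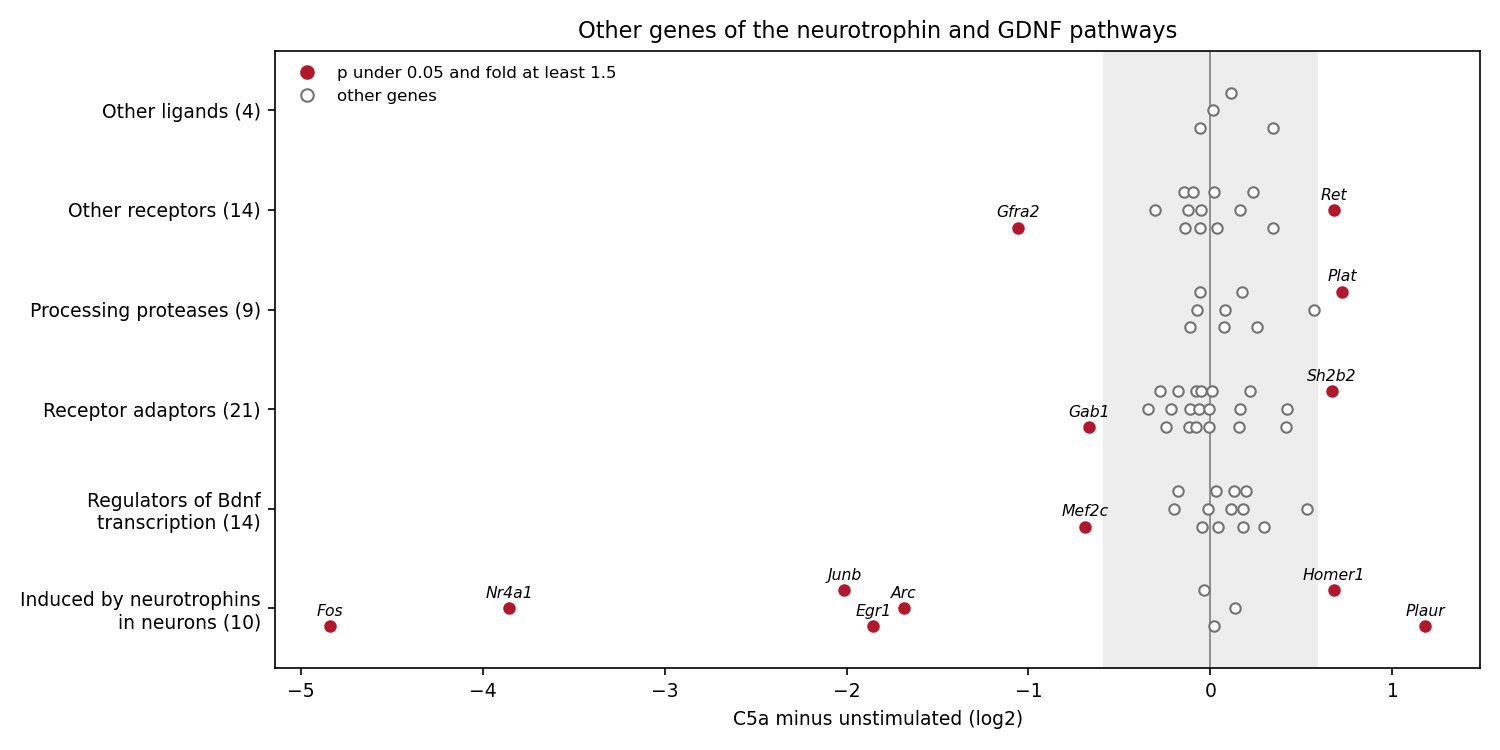
Difference between C5a and unstimulated cultures (log2, horizontal axis) for the 72 measured genes of 6 lists, 1 circle per gene and 1 row per list with the number measured in brackets. Filled circles passed the study thresholds (5 higher, 8 lower), and the grey band covers less than a 1.5-fold difference. Most genes of the upper 5 lists lie within the band, and the 5 genes farthest to the left (Fos, Nr4a1, Junb, Egr1 and Arc) belong to the list of induced genes.

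The labelled cell type was checked by markers. Of 12 osteoblast markers 8 were measured, and 7 or 8 of the 8 lay above the median of each array. Their mean level was 9.39 to 11.2 with C5a and 9.50 to 11.3 unstimulated, the low ends both from mouse 5. In this mouse Ibsp was at 7.02 with C5a and 7.56 unstimulated. It was at 11.3 and 11.8 in mouse 2 and at 12.6 and 12.9 in mouse 4. Phex was also lowest in mouse 5 (5.32 and 5.44), whereas Col1a1 was at 13.3 or above on every array. The mice thus differed in some osteoblast markers. Markers of cell types known for neurotrophin receptors were read in the same way, as positions of probesets and not as amounts of RNA or cells. Of 7 Schwann cell and glia markers 2 lay above the array median, with a mean level of 5.42 to 5.43 with C5a and 5.43 to 5.59 unstimulated, and the defining marker Sox10 was at 5.64 to 5.82 with C5a and 5.66 to 5.89 unstimulated. Of 9 neuron markers at most 1 lay above the median, with a mean of 4.97 to 5.35 with C5a and 4.99 to 5.32 unstimulated. Macrophage and osteoclast markers differed strongly between mice, all 10 lying above the array median in mice 2 and 4 and 6 in mouse 5. Adgre1 was at 9.88, 9.90 and 5.45 with C5a in mice 2, 4 and 5, against 10.1, 10.4 and 5.61 unstimulated. Cd68 was at 10.8, 11.2 and 6.78, against 11.1, 11.6 and 6.51. Ctsk varied less, from 10.4 to 10.9 over the arrays. The mean of the 10 markers was 6.88 to 9.78 with C5a and 6.74 to 10.2 unstimulated, the low ends both from mouse 5. With C5a this mean differed by -0.32, -0.41 and 0.14 in mice 2, 4 and 5, and 9 of the 10 genes had a negative log2 difference, with a median of -0.17 and 0 past the study thresholds. Its part in the differences of Bdnf and Gdnf was not tested. Bdnf was higher by 0.36 and Gdnf by 0.58 without mouse 5.

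Of the 7 smooth muscle and pericyte markers measured, 6 had a positive log2 difference with C5a and 1 a negative one. At the study thresholds 4 (Cspg4, Des, Tagln and Cnn1) were higher and 0 lower, the smallest adjusted p being 0.112. Over all genes 2.22% were higher and 2.21% lower. Acta2, Myh11 and Rgs5 did not pass. The mean of the list was 9.33 to 9.53 with C5a and 8.29 to 9.32 unstimulated. The difference of this mean was 1.04, 0.62 and 0.19 in mice 2, 4 and 5, beside 0.94, 0.22 and 0.35 for Gdnf and 0.46, 0.26 and 0.32 for Bdnf. Its part in these 2 differences was not tested. The pericyte gene Rgs5 was at 5.32 to 6.05 with C5a and 5.20 to 5.95 unstimulated. Of 5 marrow stromal markers, 4 had a negative log2 difference and the median was -0.37. Vcam1 (-0.56, adjusted p = 0.0984), Kitl (-0.56, adjusted p = 0.188) and Cxcl12 (-0.37, adjusted p = 0.170) were lower in all 3 mice, whereas Nes was higher by 1.01 (adjusted p = 0.116), and the mean of the list was 7.98 to 8.16 with C5a and 7.96 to 8.29 unstimulated. Endothelial markers averaged 5.33 to 5.46 with C5a and 5.40 to 5.45 unstimulated, and skeletal muscle markers 6.52 to 6.64 with C5a and 6.49 to 6.63 unstimulated.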

How the data were processed

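RNA was hybridised to mouse whole-transcript arrays, 6 in all. The authors analysed the images with Affymetrix Expression Console, applied RMA and deposited 1 log2 value per probeset, without counts or detection calls. Depth is therefore unknown, and the 3 arrays per group limit the precision. Program versions are not given in the sources used here. Array medians were 5.89 to 5.93, and 0 columns were left out.

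All 35556 probesets were fitted with limma 3.58.1 (lmFit, eBayes) in R 4.3.3, with the mouse number of the labels as a block and adjustment by the method of Benjamini and Hochberg. Per the design text the cells of each mouse were split between the groups, and equal numbers in the titles were read as the same mouse. Deviations from the group means correlated at 0.495 to 0.684 between cultures of the same number and at -0.446 to -0.035 otherwise. The deviations within a group sum to 0, so positive values for equal numbers bring negative ones for the others. An exact test over 3 pairs cannot go below p = 0.25. Of the probesets, 21789 name 1 gene in the platform annotation. Genes with several probesets were read through the one of highest mean, and gene positions are from RefSeq. Named were all members, list genes past the study thresholds or up to 4 per list with the smallest p, and the 3 genes most like each member. Markers are given by counts and ranges with the defining ones named. Gfra1, Plg, Vgf, Rgs5, Ibsp, Phex, Col1a1, Adgre1, Cd68, Ctsk and the single marrow stromal genes were named after their values were seen. Members and lists were chosen with earlier results of these data known. The fitting script was tested on simulated data as a step of the analysis. Alternatives were the fit without the block, the methods' unpaired test and its paired form, a variance trend, a filter on the dimmest 40%, single-gene probesets, median centring, quantile normalization, another choice of probeset per gene, and leaving out each mouse or array.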

Additional observations from a re-analysis of the deposited data

How the results depend on the processing

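Of 163 values recomputed under the alternatives, 148 kept their direction and side of the adjusted threshold or, for counts, stayed within 1.5 times. A further 11 changed sign, and 4 counts moved further than that. Many of the 148 could not change. Each member had 1 probeset, and alternatives that altered only the test or the set of probesets fitted left the log2 difference as it was. The 148 is therefore not a measure of robustness. No member passed the adjusted threshold under any of them: the adjusted p of Bdnf ranged from 0.0665 to 0.560 and that of Gdnf from 0.125 to 0.945. The difference of Bdnf stayed between 0.27 and 0.41 and that of Gdnf between 0.16 and 0.80, both positive throughout. Without the replicate block the adjusted p was 0.262 for Bdnf and 0.722 for Gdnf, 0 of 5 members passed the study thresholds, and the genes of the pathway past them numbered 12, against 13 with it, Gfra2 being lost. When a mouse or an array was left out, 0 to 1 members passed the study thresholds, the 1 being Gdnf as higher, without mouse 4 (0.64) or without its C5a array (0.80). The signs of the receptors are not settled: Ngfr was 0.0193 and Ntrk2 -0.00097 after quantile normalization, and leaving out a mouse or an array gave -0.0895 to 0.0302 for Ngfr, -0.0443 to 0.0655 for Ntrk2 and -0.12 to 0.15 for Ntrk3.

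Over all probesets the adjusted threshold was passed by 4 with the block, 5 without it, 0 in either t-test form, 373 of 21333 after the dim filter, 795 of 21789 among single-gene probesets, and 0, 3 and 0 without mouse 2, 4 or 5. At the study thresholds 608 were higher and 558 lower, against 374 and 291 by the methods' test.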
